A study of Mus musculus with 6 samples.

Results

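T and NK cell genes were examined in subcutaneous adipose tissue of mice that carry a mitoNEET transgene and of wild type mice. The set holds 41 genes that mark T cells and natural killer (NK) cells, chosen by name, and each was read through the array probes that list its symbol. Of the 41 genes, 30 were measured, 6 had probes that stayed at background, and 5 (Lck, Tcf7, Sh2d1a, Gzma and Il2rg) had no probe in the annotation used and were not analysed here. The 30 were measured among 11469 named genes on the arrays. All animals were male FVB mice aged 12 weeks, and there were 3 Illumina bead arrays for each genotype. The 2 groups are wild type and mitoNEET-transgenic, with no other treatment labelled. MitoNEET, the product of Cisd1, sits in the outer membrane of mitochondria and binds an iron-sulfur cluster. Mice published under this name carry the transgene under the aP2 (Fabp4) promoter, which is active in fat cells, and the sample names of both genotypes contain aP2; the labels do not state what drives the transgene or whether each array came from a separate animal. P-values therefore measure the spread between these arrays, and their number limits the precision.

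T cells recognise antigen through a receptor whose signal passes through the CD3 chains to the kinases Lck and Zap70 and the adaptor Lat. Naive T cells that circulate through lymph nodes depend on interleukin-7 and express the transcription factors Tcf7, Lef1 and Satb1, whereas regulatory, helper, cytotoxic and NK cells carry their own regulators and effector proteins. Adipose tissue holds resident lymphocytes, and the inguinal subcutaneous depot of the mouse also surrounds a lymph node. The labels do not say whether a node was included or removed at dissection. In whole tissue, fewer cells of a type and less RNA per cell cannot be told apart.

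The arrays were comparable in distribution, because the deposited intensities had been made equal across arrays. A probe was counted as measured when it read above 55.6, the background threshold, on at least 3 of the 6 arrays, and each gene was represented by its brightest measured probe. Adipocyte markers were bright on every array, with Adipoq between 11615 and 16177. Cisd1 read 1035, 773 and 937 on wild type arrays 1 to 3 and 1091, 1106 and 1060.2 on transgenic arrays 1 to 3, so the transgenic arrays were higher without overlap, but the log2 difference of 0.26 missed the threshold (limma adjusted p = 0.163). Wild type array 2 stood apart for skeletal muscle genes: the summed intensity of 7 muscle markers was 24668 there and between 3021 and 4856 on the other 5 arrays.

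Most T cell genes were lower in transgenic tissue. Of the 30 measured genes, 20 fell (limma, adjusted p under 0.05 over all features), 10 missed that threshold, and none had a log2 change above 0. Over all 14963 features tested, 8.26% fell and 5.11% rose, 13.4% together. The median log2 change (transgenic minus wild type) of the 30 genes was −1.16, against 0.03 for all features. Of the 30, 16 both passed and were at least 2-fold lower, as were 2.12% of all features. The groups did not overlap in 26 of the 30 genes, in each with the wild type arrays above, a pattern seen in 17.4% of all features, while 35.9% separated in either direction. The 4 genes with overlapping arrays were Cd28, Foxp3, Cd8b1 and Il2rb. All 30 read above background on all 3 wild type arrays, so no gene entered the set through the transgenic arrays alone; 20 read above it on all 6 arrays, and Ubash3a and Eomes on wild type arrays alone. A gene that entered through its wild type values had to differ, which bears on how these counts can be read.

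**Figure D1:**
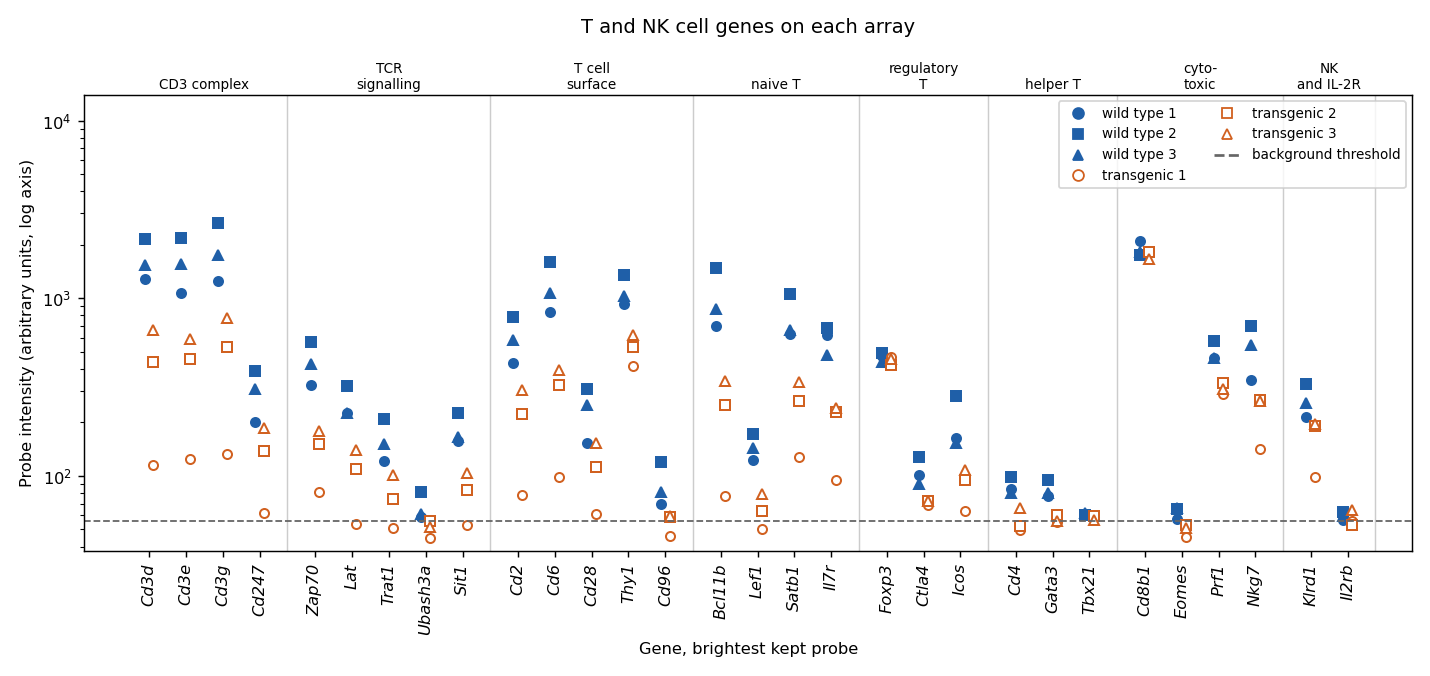
Intensity of the brightest measured probe of each of the 30 genes (log axis, arbitrary units) on 3 wild type arrays (filled) and 3 transgenic arrays (open), grouped by role, with the background threshold of 55.6 dashed. Transgenic array 1 (open circles) is the lowest in 26 of the 30 genes, and the bright probes of Cd8b1 and Foxp3 differ little between arrays.

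**Figure D2:**
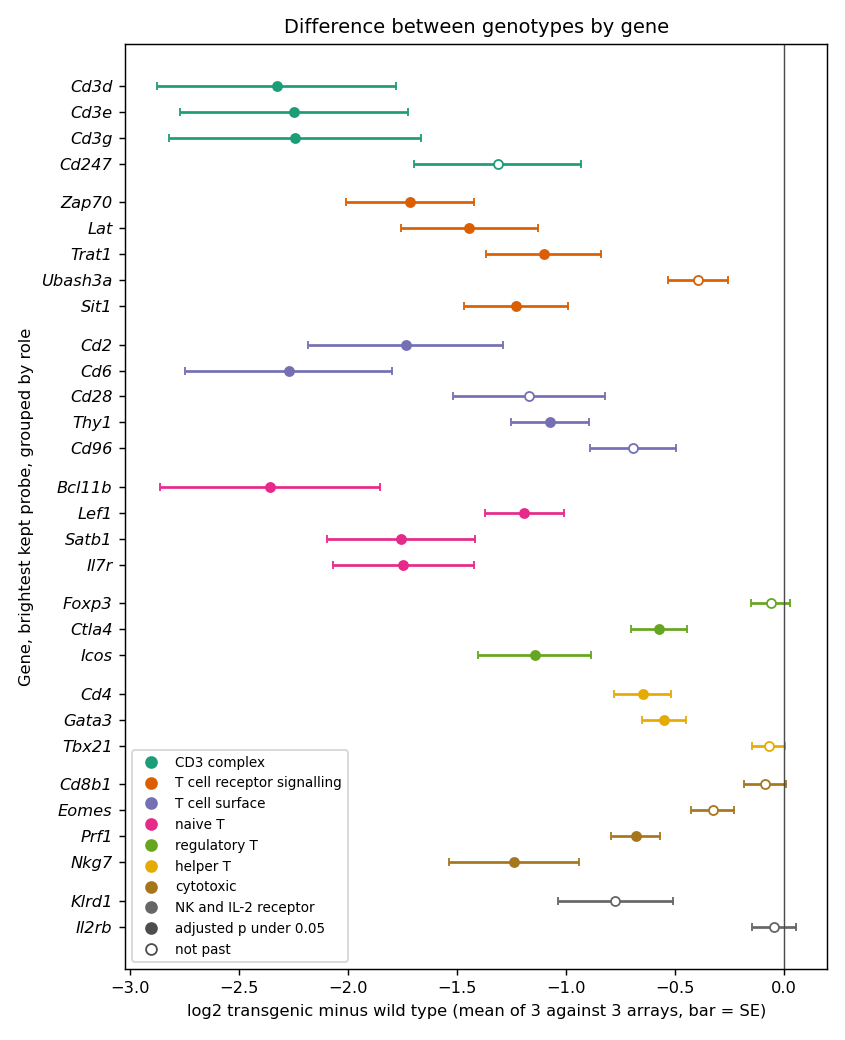
Log2 difference between transgenic and wild type arrays for each of the 30 genes, with its standard error from limma over 3 against 3 arrays. Filled points mark the 20 genes with an adjusted p under 0.05; Cd3d, Cd3e, Cd3g, Cd6 and Bcl11b lie near −2.3 and Cd247 at −1.31, while Foxp3, Tbx21, Cd8b1 and Il2rb lie close to 0.

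The size of the fall followed the arrays in a recurring order. Transgenic array 1 was the lowest of the 6 arrays in 26 of the 30 genes, as in 19.5% of all features, and wild type array 2 was the highest in 26, as in 22.6% of all features. Both held in 25 genes, against 11.7% of all features. In 15 genes the arrays stood in a single full order, rising from transgenic arrays 1, 2 and 3 to wild type arrays 1, 3 and 2, an order found in 3.7% of all features. The calls rested on particular arrays. Without transgenic array 2 the count of genes that fell was 0 (26 had an unadjusted p under 0.05), and over all features it was also 0 (3628 unadjusted). Without wild type array 2 the count was 3, namely Thy1, Lef1 and Prf1, and without transgenic array 1 it was 14. Without both of those arrays 13 genes fell, and the median change was −0.64 in place of −1.16. The direction of every gene but Il2rb was the same in each of these fits. Other settings ended calls. With a mean-variance trend and robust moderation 9 genes fell: Bcl11b, Cd2, Cd3d, Cd3e, Cd3g, Cd6, Icos, Il7r, Lat, Nkg7, Satb1 and Trat1 lost their calls and Eomes gained one. With the background level subtracted from each value before the log, limma called 0 of the 30 genes, of which 24 were under 0.05 before adjustment, while the median change was −2.21.

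The CD3 chains are the signalling subunits of the T cell receptor, and 3 of the 4 fell. Cd3d (Entrez Gene 12500), the delta chain, read 1279.7, 2158 and 1546 on wild type arrays 1 to 3 and 116, 440.0 and 663 on transgenic arrays 1 to 3. Every transgenic array was thus below every wild type array, and the spread among transgenic arrays was wide: they stood at 7.0%, 26.5% and 39.9% of the wild type mean. The difference was 5.02-fold (log2 −2.33, SE 0.55, adjusted p = 0.031). Cd3e (Entrez Gene 12501), the epsilon chain, read 1076, 2171 and 1555 in wild type tissue and 125, 457 and 593 in transgenic tissue, a 4.75-fold fall (log2 −2.25, SE 0.52, adjusted p = 0.0294). Cd3g (Entrez Gene 12502), the gamma chain, read 1251, 2657 and 1741 against 133, 531 and 774, a 4.74-fold fall (log2 −2.24, SE 0.58, adjusted p = 0.0394). The 3 chains had the same order of arrays, the full order found in 15 of the 30 genes. Cd247, the zeta chain, which NK cells also use, read 201, 391 and 310 against 62.0, 138 and 186. Its groups did not overlap, but its log2 difference of −1.31 did not pass (SE 0.38, adjusted p = 0.0562). Cd247 passed without wild type array 1 (adjusted p = 0.0457) or without transgenic array 3 (adjusted p = 0.0425). Without transgenic array 1 the changes of Cd3d, Cd3e and Cd3g were −1.59, −1.56 and −1.49 and passed (adjusted p 0.033, 0.036 and 0.043), whereas the 3 calls were lost without wild type array 2, wild type array 3 or transgenic array 2.

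Cd3d, Cd3g and Cd3e lie together on mouse chromosome 9, and Cd3d and Cd3g start 1355 bases apart on opposite strands. Their promoters are shown because these neighbouring genes stood in the same order across the 6 arrays. That order is not particular to them: Cd247 had it too, and it was found in 15 of the 30 genes. The windows run from 250 bases before to 50 bases after each annotated start (RefSeq, GRCm38.p6), 5′ to 3′ on the gene's strand. Capitals mark matches on either strand to 5 short motifs of factor families known in T cells. The ETS motif was searched as CAGGAA and the E-box motif as CAGGTG. For TCF/LEF factors the letters were CTTTGA, for RUNX factors TGTGGT, and for GATA factors AGATAA.
Cd3d promoter, chr9:44981536-44981835, plus strand: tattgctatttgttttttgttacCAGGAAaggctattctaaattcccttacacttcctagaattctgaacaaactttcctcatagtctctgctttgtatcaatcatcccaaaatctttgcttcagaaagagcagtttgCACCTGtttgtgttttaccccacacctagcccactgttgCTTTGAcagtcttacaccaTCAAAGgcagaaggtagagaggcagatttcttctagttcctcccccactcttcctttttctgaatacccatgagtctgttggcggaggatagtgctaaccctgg
Cd3g promoter, chr9:44980382-44980681, minus strand: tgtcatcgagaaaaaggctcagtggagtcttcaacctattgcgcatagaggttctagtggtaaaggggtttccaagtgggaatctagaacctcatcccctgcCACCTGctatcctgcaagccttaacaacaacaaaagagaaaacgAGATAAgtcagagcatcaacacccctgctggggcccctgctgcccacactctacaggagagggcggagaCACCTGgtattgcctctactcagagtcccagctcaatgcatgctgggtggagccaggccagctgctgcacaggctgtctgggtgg
Cd3e promoter, chr9:45009562-45009861, minus strand: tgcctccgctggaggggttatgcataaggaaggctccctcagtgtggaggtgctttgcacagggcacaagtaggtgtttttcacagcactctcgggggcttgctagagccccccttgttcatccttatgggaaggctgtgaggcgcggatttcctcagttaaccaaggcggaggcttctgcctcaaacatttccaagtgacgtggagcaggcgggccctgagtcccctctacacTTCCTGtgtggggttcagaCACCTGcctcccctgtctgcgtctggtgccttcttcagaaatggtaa
The Cd3d window held 4 matches, of which 2 were TCF/LEF, 1 was ETS and 1 was E-box. The Cd3g window held 2 E-box matches and 1 GATA match, and the Cd3e window 1 ETS and 1 E-box match; no matches overlapped, and E-box letters were the only ones found in all 3 windows. Among the 21 measured genes with a promoter entry, 76.2% had the ETS letters in at least 1 window, 52.4% the E-box letters, 38.1% the TCF/LEF letters, 33.3% the RUNX letters and 19.0% the GATA letters. Over 27025 genes counted the same way, the shares were 33.4%, 22.6%, 18.2%, 18.9% and 12.7%. A gene with more windows has more room for a match, and the 21 genes had 31 windows. Counted by window, in the same order of motifs, their shares were 54.8%, 41.9%, 25.8%, 22.6% and 12.9%. Over all 32851 windows the shares were 30.6%, 20.2%, 16%, 16.8% and 11.2%. Such letters describe the windows and do not show that a factor binds there.

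Genes that carry the receptor's signal were also lower. Zap70, the kinase that binds the phosphorylated CD3 chains, read 325, 564 and 428 on wild type arrays and 81.5, 152 and 179 on transgenic arrays. The groups were far apart, and the fall was 3.28-fold (log2 −1.71, SE 0.29, adjusted p = 0.0162). Lat, the membrane adaptor that Zap70 phosphorylates, read 227, 322 and 227 against 54.0, 110 and 140 and fell by 1.44 on the log2 scale (adjusted p = 0.0245), with transgenic array 1 below background. Sit1 and Trat1, transmembrane adaptors of the receptor complex, fell 2.34-fold and 2.15-fold (adjusted p = 0.0192 and 0.0327). Ubash3a, a negative regulator of receptor signalling, was near background at 58.8, 80.8 and 61.5 against 44.9, 55.5 and 51.6. No transgenic array measured it, so the difference is at least 1.19-fold, and it did not pass (log2 −0.39, adjusted p = 0.0924). Txk, a Tec family kinase, stayed between 50.8 and 57.2. All 4 calls were lost without transgenic array 2 or wild type array 2, and that of Trat1 also without wild type array 3 or transgenic array 1.

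Surface molecules of T cells fell to different degrees. Cd6, a co-receptor that binds Alcam, read 837, 1597 and 1066 against 98.5, 324 and 397, a 4.82-fold fall (log2 −2.27, SE 0.47, adjusted p = 0.0223). Cd2, an adhesion receptor shared with NK cells, read 433, 783 and 581 against 78.2, 224 and 306 and fell 3.33-fold (log2 −1.73, SE 0.45, adjusted p = 0.0399). In both genes the highest transgenic array lay well below the lowest wild type array. Thy1, a glycoprotein of T cells that fibroblasts and nerves also make, had a smaller and more even fall: it read 926, 1355 and 1029 against 418, 530.1 and 625 (2.10-fold, log2 −1.07, SE 0.18, adjusted p = 0.0155). Transgenic array 1 kept 37.9% of the wild type mean of Thy1, against 8.44% for Cd6. Cd28, the co-stimulatory receptor, read 153, 310.0 and 251 against 61.0, 112 and 154, so that transgenic array 3 reached the level of wild type array 1. Its log2 difference of −1.17 did not pass (SE 0.35, adjusted p = 0.0585), nor did that of Cd96, a receptor of T and NK cells, at −0.69 (SE 0.20, adjusted p = 0.0508). Both passed without wild type array 1 (adjusted p 0.0355 and 0.0285), and Cd28 also without transgenic array 3 (0.0441). Cd5, a negative regulator found on nearly all T cells, read between 45.0 and 50.5 on its only probe, at background in both genotypes. The call of Cd6 was lost without wild type array 2 or transgenic array 2, that of Cd2 also without wild type array 3, and that of Thy1 without transgenic array 2 only.

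All 4 measured genes of the naive T cell group fell. Bcl11b (Entrez Gene 58208), a transcription factor that sets T cell identity, read 697, 1481 and 868 against 77.5, 252 and 342, a 5.12-fold fall (log2 −2.36, SE 0.50, adjusted p = 0.0238). Transgenic array 1 held 7.63% of the wild type mean. Satb1, a chromatin organiser of T cells, read 629, 1055 and 664 against 128, 264 and 338 and fell 3.38-fold (log2 −1.76, SE 0.34, adjusted p = 0.0192). Il7r, the interleukin-7 receptor chain that keeps naive and memory T cells alive, read 619, 678 and 477 against 95.5, 229 and 243 (log2 −1.75, SE 0.32, adjusted p = 0.0182). It departed from the recurring order, in that wild type array 3 and not array 1 was the lowest of the wild type arrays. Lef1, a relative of Tcf7 in the TCF/LEF family, read 122, 172 and 144 against 50.2, 63.9 and 79.5 and fell 2.28-fold (log2 −1.19, SE 0.18, adjusted p = 0.0145). Lef1 kept its call in 5 of 6 fits that each left out 1 array, all but the fit without transgenic array 2; the other 3 genes lost theirs without that array or without wild type array 2.

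Among regulatory T cell genes the reading depended on the probe for Foxp3. Icos, a co-stimulatory receptor of activated and regulatory T cells, read 164, 282 and 152 against 63.9, 94.9 and 108 and fell 2.21-fold (log2 −1.14, SE 0.26, adjusted p = 0.0276). Ctla4, an inhibitory receptor, read 101, 128 and 90.3 against 68.3, 72.3 and 72.3 and fell by 0.57 on the log2 scale (SE 0.13, adjusted p = 0.0265). Transgenic array 1 held 32.0% of the wild type mean of Icos and 64.0% of that of Ctla4, which reads close to background. Foxp3 (Entrez Gene 20371), the master regulator of regulatory T cells, read 474, 489 and 439 against 469, 419 and 456 on its brightest probe, where the genotypes overlapped (log2 −0.06, SE 0.09, adjusted p = 0.682). Its second probe read 90.3, 158 and 103 against 67.8, 73.2 and 75.1 and was lower when each kept probe was tested alone (log2 −0.66, adjusted p = 0.0445), as was the next probe (log2 −0.42, adjusted p = 0.0345). The dimmest probe, with a log2 difference of −0.29, did not pass (adjusted p = 0.0822). Each of the 3 dimmer probes separated the genotypes and had its highest value on wild type array 2. On transgenic arrays the third probe read 52.0, 49.1 and 53.2 and the dimmest 52.9, 49.2 and 50.7, all below background. Both were kept through wild type arrays alone, so the filter fixed their separation and their p-values lend no weight. The calls of Icos and Ctla4 were lost without wild type array 2, transgenic array 1 or transgenic array 2, and that of Ctla4 also without transgenic array 3.

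Helper T cell genes read close to background in both genotypes. Cd4, the co-receptor for class II histocompatibility molecules, read 84.0, 98.9 and 79.9 against 49.8, 52.6 and 65.9, so that only transgenic array 3 was above background among transgenic arrays (1.57-fold, log2 −0.65, SE 0.13, adjusted p = 0.0208). Gata3, a transcription factor of type 2 helper cells and innate lymphoid cells, read 77.0, 94.5 and 79.9 against 55.0, 60.2 and 55.9 (log2 −0.55, SE 0.10, adjusted p = 0.0177). If about 47.8 of each reading is background, the mode of all intensities, these folds understate the change in signal. The background of each probe was not measured. Tbx21, a transcription factor of type 1 helper and NK cells, read between 56.5 and 61.7 on all 6 arrays, and its log2 difference of −0.07 did not pass (SE 0.08, adjusted p = 0.574). The calls of Cd4 and Gata3 were each lost without wild type array 2, transgenic array 1 or transgenic array 2.

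The cytotoxic group held the sharpest disagreement between probes. Cd8b1 (Entrez Gene 12526), the beta chain of the CD8 co-receptor of cytotoxic T cells, read 2096, 1762 and 1824 against 1851, 1820.1 and 1673 on its brightest probe, with overlapping genotypes (log2 −0.09, SE 0.10, adjusted p = 0.591). Its second probe read 1447, 3126 and 2027 against 122, 543 and 862, and its dimmest probe 241, 449.5 and 310.1 against 58.9, 105 and 169.6. These 2 probes repeated the array order of the CD3 chains and were lower when each kept probe was tested alone, with log2 changes of −2.44 (SE 0.61, adjusted p = 0.0347) and −1.67 (SE 0.35, adjusted p = 0.0208). All 3 probes list the same transcript in the platform annotation, and their sequences were not used here. With the mean of its kept probes, Cd8b1 fell by 1.40 on the log2 scale (SE 0.32, adjusted p = 0.0314). Cd8a, the alpha chain, read between 34.7 and 48.0 on both its probes, so no level of it was measured in either genotype.

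**Figure D3:**
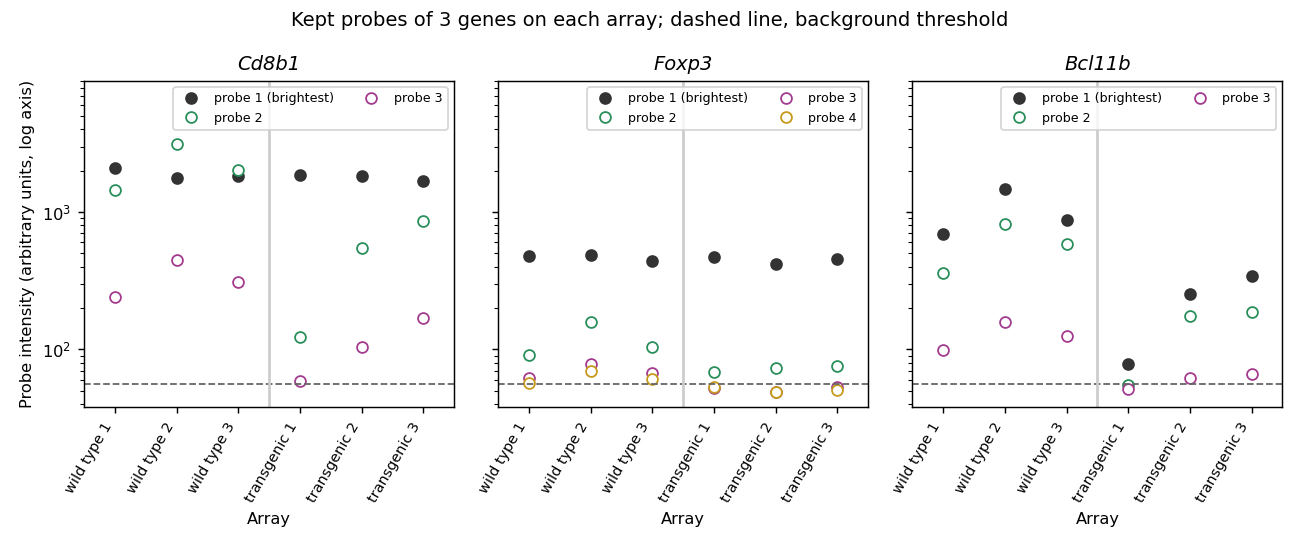
Intensity of each kept probe (log axis, arbitrary units) on the 6 arrays for Cd8b1, Foxp3 and Bcl11b, with the brightest probe filled and the background threshold of 55.6 dashed. The brightest probes of Cd8b1 and Foxp3 are level across arrays while their dimmer probes are lower on transgenic arrays; the 3 probes of Bcl11b move together.

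Of the effector genes of cytotoxic cells, Nkg7 and Prf1 fell. Nkg7, a granule protein of cytotoxic T and NK cells, read 349, 701 and 544 against 143, 267 and 266 and fell 2.36-fold (log2 −1.24, SE 0.30, adjusted p = 0.0331). Prf1, the pore-forming perforin, read 463, 575 and 461 against 289, 336 and 308, a fall of 1.60-fold that was even across the transgenic arrays (log2 −0.68, SE 0.11, adjusted p = 0.0155). Transgenic array 1 held 57.8% of the wild type mean of Prf1 and 26.9% of that of Nkg7. Eomes, a transcription factor of cytotoxic and NK cells, read 57.3, 65.3 and 65.8 against 45.6, 53.3 and 51.3; no transgenic array measured it, so the difference is at least 1.13-fold, and it did not pass (log2 −0.33, adjusted p = 0.0608), although it did without wild type array 1 (adjusted p = 0.0454). The granzyme genes Gzmb and Gzmk read between 37.9 and 47.9 and between 46.8 and 58.6. Of the single exclusions only that of transgenic array 2 ended the call of Prf1, which was also lost without wild type array 2 and transgenic array 1 together. Nkg7 lost its call in 4 of the 6 fits that left out 1 array, those without wild type array 2 or 3 or transgenic array 1 or 2.

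Neither measured gene of the NK and interleukin-2 receptor group passed. Klrd1, which encodes CD94 of NK cells and some cytotoxic T cells, read 215, 328 and 257 against 98.2, 190.2 and 195. The groups did not overlap, yet transgenic arrays 2 and 3 held 71.3% and 73.1% of the wild type mean, and the log2 difference of −0.77 did not pass (SE 0.26, adjusted p = 0.0863). Il2rb, the beta chain of the interleukin-2 and interleukin-15 receptors, read between 53.3 and 64.6 with overlapping groups (log2 −0.05, SE 0.10, adjusted p = 0.794). Ncr1, the activating receptor NKp46, stayed between 42.4 and 49.2. Around the filter, Ubash3a and Eomes entered with 3 arrays above 55.6 and Il2rb with 5, whereas Gzmk was left out with 2 and Txk with 1.

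Probes tested one by one gave lower values in most of these genes. The 30 genes had 54 kept probes, of which 41 were lower when each probe was tested alone and 0 were higher; over all 22038 kept probes, 7.36% were lower. In 49 of the 54 the wild type arrays lay above the transgenic arrays, as in 15.5% of all kept probes. The 49 include probes that no transgenic array measured, whose separation the filter fixed in advance. They are those of Ubash3a and Eomes, the dimmer probe of Icos, and the dimmest Foxp3 probe with the one next above it. Among the 15 genes that kept several probes, 10 had every kept probe lower, among them Cd6 and Il7r with 4 probes each and Zap70 and Bcl11b with 3 each. Icos is also among the 10, with its dimmer probe kept through wild type arrays alone. The 5 genes with at least 1 kept probe not past the threshold were Cd247, Lat, Trat1, Foxp3 and Cd8b1. The other probes of Cd247, Lat and Trat1 were dimmer than their brightest, at 58.9 to 66.3, 50.6 to 66.0 and 54.4 to 107. Tested alone, the brightest probes of Lat and Trat1 passed, but that of Cd247 did not (limma adjusted p = 0.0502).

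Other T and NK cell genes, from lists set beside the 41, mostly fell. Of 96 listed symbols 61 were measured, of which 34 fell and 1 rose, while 26 missed the threshold. The median log2 change was −0.69. Over all features 8.26% fell and 5.11% rose, which are the shares to set beside each count here. In the receptor pathway, 15 of 19 measured genes fell (median −1.16). They include Rasgrp1, an activator of Ras in T cells (log2 −2.05, adjusted p = 0.0265), and the leukocyte genes Cd52 (log2 −2.19), Coro1a (−1.78), Fyb (−1.63), Ly9 (−1.56) and Vav1 (−1.42), which other blood cells share to varying degrees. The other 9 that fell were Lcp2, Skap1, Prkcq, Ptpn22, Ptprc, Ptprcap, Slamf1, Slamf6 and Tespa1. Among 10 further genes of naive T cells 6 fell: Cd27, a co-stimulatory receptor, by 2.30 on the log2 scale, the transcription factors Ikzf1, Ets1, Foxp1 and Klf2 by 1.95, 0.98, 0.84 and 0.70, and Tox. Of 8 further regulatory T cell genes 4 fell, namely Tnfrsf18 (GITR) and Tnfrsf4 (OX40), both co-stimulatory receptors, by 1.48 and 1.31 on the log2 scale, Gpr83 by 1.30, and Il2ra, the interleukin-2 receptor alpha chain. No transgenic array measured Il2ra, so its difference is at least 1.24-fold (adjusted p = 0.0253).

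Of 7 further helper T cell genes 3 fell and 1 rose, where 8.26% of all features fell and 5.11% rose. Ccr6, Stat4 and Cxcr5 fell by 1.89, 1.33 and 1.16 on the log2 scale, of which Ccr6 and Cxcr5 are also B cell receptors. Rora, which many non-lymphoid cells express, rose by 0.49 (SE 0.11, adjusted p = 0.0285), from 435, 345 and 430 to 608, 532 and 553. Among 14 further cytotoxic and NK genes 5 fell: Ccl5 by 2.18, Ctsw by 1.29, Cst7 by 0.61, Cd160 by 0.51 and Gzmm by 0.36 on the log2 scale. The other 9 missed the threshold. Of these, Klra3, Lag3 and Klrb1c had log2 changes above 0, at 0.23, 0.08 and 0.07. Those of Klre1, Klrk1, Fasl, Tyrobp, Cd226 and Xcl1 were below 0, between −0.05 and −0.46. The median of the 14 was −0.30. The genes Ifng, Il4 and Il17a, which encode the signature cytokines of helper T cells, did not exceed 65.5. Of 3 measured genes listed for gamma delta T cells, only Blk fell, by 1.76, and it is also a B cell kinase listed among the B cell markers. Sox13 was higher on every transgenic array than on any wild type array, but its log2 difference of 0.40 did not pass (adjusted p = 0.0852). Cd163l1 overlapped between genotypes and did not pass (log2 −0.21, adjusted p = 0.276). The lists share B and myeloid genes as named, and calls in them were not tested against each other.

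The falls ran alongside those of B cell and lymph node genes. Of 12 measured B cell markers 11 fell (median log2 −1.34) and 1 rose, Ebf1, a transcription factor that fat cells also use (log2 0.33, adjusted p = 0.0477). Over all features 8.26% fell and 5.11% rose. Bank1, among the 11, was measured on wild type arrays alone, so it had to differ. Also among the 11 was Cd79b, a chain of the B cell receptor, at 963, 1569 and 957 against 125, 367 and 341. The summed intensity of the 12 markers lay between 4536 and 7047 on wild type arrays and between 1519 and 2462 on transgenic arrays. Of 11 measured markers of lymph node stroma and venules 7 fell (median −2.04), and the sum of the 11 lay between 9103 and 16805 in wild type tissue and between 1315 and 4764 in transgenic tissue. The 7 include Ltb, which lymphocytes themselves express and whose log2 change of −2.04 is also the median, so the list is not of stroma and venules alone. No transgenic array measured Chst4, which fell, or Madcam1, which did not pass. Both entered through wild type arrays alone and had to differ, by at least 1.37-fold and 1.13-fold. Ltbr, Clec4g and Fut7 did not pass either, with log2 changes of 0.20, −0.07 and −0.19. Every transgenic array was above every wild type array for Ltbr, and the groups overlapped for Clec4g and Fut7. Glycam1, a mucin of high endothelial venules, read 1662, 3734 and 2586 against 212, 832 and 712, and Ccl21a, a chemokine that draws naive T cells into nodes, read 1865, 4009 and 2737 against 188, 946 and 1123. Ccl21a has near-identical copies, so its probe may read several of them. Both genes had their lowest value on transgenic array 1 and their highest on wild type array 2, as the CD3 chains did, and all 11 lymph node markers read above background on every wild type array. The summed intensity of the 4 CD3 chains was between 3807 and 7376 in wild type tissue and between 436 and 2215 in transgenic tissue. The part of lymph node content in the T cell differences was not tested.

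Transgenic array 3 lay above array 2 in 22 of the 30 T and NK genes and in 8 of the 11 lymph node markers, but in 2 of the 12 B cell markers; over all features the share was 49.6%. These counts are a description, with no test. Of 10 measured macrophage and dendritic cell markers 1 fell, Lyz1 (log2 −0.53, adjusted p = 0.0275), and their median was 0.24. That count is near the 8.26% of all features that fell, and 5.11% of all features rose. Of 11 adipocyte markers 8 rose and 0 fell (median 0.55), with a summed intensity of 43593 to 50109 in wild type and 60927 to 65162 in transgenic tissue. Of 8 endothelial markers 2 rose (median 0.36). The median log2 change was −1.13 for muscle, −0.07 for fibroblast and 0.18 for mast cell and granulocyte markers. Wild type array 2 was the highest array both for muscle markers and for most T cell genes, and without it the median change of the 30 genes was −0.93.

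**Figure D4:**
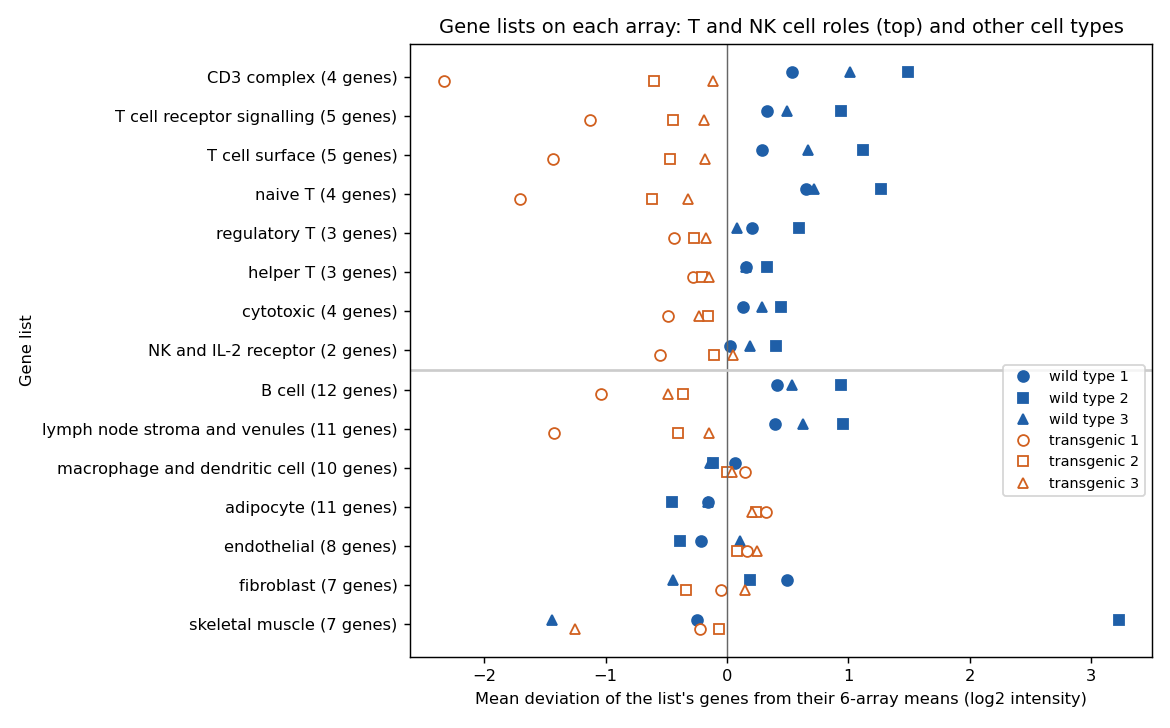
Mean log2 deviation of each list's measured genes from their 6-array means, for 3 wild type (filled) and 3 transgenic (open) arrays, with the 8 roles of T and NK cell genes above the line and other cell types below. CD3, naive T, B cell and lymph node lists place transgenic array 1 lowest and wild type array 2 highest; adipocyte genes run the other way, and muscle genes are high on wild type array 2 alone.

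Median log2 changes were −2.25 for the CD3 complex, −1.75 for naive T genes, −1.23 for receptor signalling, −1.17 for T cell surface genes, −0.57 for regulatory, −0.55 for helper, −0.50 for cytotoxic and −0.41 for the 2 measured genes of the NK and interleukin-2 receptor group. With the mean of kept probes in place of the brightest probe, the median was −0.89 for cytotoxic genes, where Cd8b1 moves from −0.09 to −1.40, −0.77 for receptor signalling and −1.31 for naive T genes. A background level remains in these values and compresses the ratios of genes read near it, so the order of the roles cannot be read as an order of change. With the background level subtracted from the group means, the ratio of wild type to transgenic was 4.50 for Cd3d, 4.35 for Zap70, 3.69 for Icos, 2.73 for Nkg7, 2.21 for Thy1, 1.93 for Klrd1 and 1.72 for Prf1. These genes are a selection from those above background on all 6 arrays. Others of that kind were Cd6 at 4.96, Satb1 at 3.76, Ctla4 at 2.54 and Foxp3 at 1.05, so ratios differed widely within a role. The helper genes Cd4 and Gata3, which some transgenic arrays did not measure, had ratios of 4.79 and 3.88. The ratios therefore give no order of the roles, and they are descriptions with no test.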

How the data were processed

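Total RNA from subcutaneous fat was measured on Illumina bead arrays, 3 a genotype, with biotin-labelled cRNA per the labels' protocols. The values the authors deposited are probe intensities, not on a log scale. The software behind them is not stated in the labels. Sorted values differed by at most 0.157 between arrays, as after quantile normalization, and the lowest was 32.4, so background remained. Scanner output with 24 per-array columns was left aside because no column name matches a sample's label.

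The background level was the mode of all log2 intensities (47.8), and the threshold (55.6) was that mode plus 1.64 times the spread below it. A probe above it on at least 3 arrays was kept (22038 of 45281). The platform annotation, which can be old, pairs 34885 probes with 1 gene and 18 with several, and leaves 10378 unnamed, which were tested too. The brightest kept probe stood for its gene. limma (version 3.58.1, R 4.3.3) was fitted to log2 intensities by genotype, with Benjamini-Hochberg adjustment over 14963 features. The fit was tested on simulated data.

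The members and lists were chosen with earlier results of these data known. The rule for names took all 41 members, genes of the T and NK lists past the threshold, up to 4 of smallest p per list, up to 4 of the brightest markers of a cell type, and Cisd1. Not every marker it allows is named, and those shown, like any other name, were picked after their values were seen. Alternatives were an offset of 16, background subtraction, other filters and probe choices, centring, trend with robust moderation, weights for arrays, a replicate block and left-out arrays, which kept the same features. Promoters come from RefSeq (GRCm38.p6) for 21 of the 30 measured genes; Cd2, Cd6, Cd28, Thy1, Icos, Cd4, Cd8b1, Klrd1 and Il2rb have no window shown or searched.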

Additional observations from a re-analysis of the deposited data

How the results depend on the processing

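The 30 genes kept the direction of their change in every alternative except Il2rb, whose log2 difference ran from −0.127 to 0.0111 over single exclusions (0.0111 without transgenic array 2) and was 0.0154 without wild type array 2 and transgenic array 1. The count of genes that fell, 20, stayed within 1.5 times under an added offset (20), no filter (20), centring (20), the mean of kept probes (21), array weights (23), each kept probe alone (23, chosen after seeing the data) and the filter on all 6 arrays (14 of 20 genes measured). It was 9 with a mean-variance trend and robust moderation, 0 with the background level subtracted (24 genes had an unadjusted p under 0.05 in limma) and 13 without wild type array 2 and transgenic array 1. Over single exclusions it ran from 0 to 24. Subtraction moved the median change of the 30 genes from −1.16 to −2.21 and the exclusion of both arrays moved it to −0.64; single exclusions gave −1.35 to −0.89. Over all features the count of 2001 (765 higher and 1236 lower) became 14 with subtraction (floor of 1), 317 without both arrays and 0 to 2143 over single exclusions. Centring moved the median change of all features from 0.03 to 0.06 and gave 1116 higher and 1085 lower calls. With the replicate block 26 of the 30 genes fell and 2391 features passed. Same-numbered arrays deviated together with correlations of 0.41, 0.22 and −0.03, and arrays of unlike number with correlations from −0.35 to 0.23. These values do not settle whether the numbers pair the arrays, so no weight is placed on the counts from this fit. Dim probes near 47.8 limit what can be seen of Cd5, Cd8a, Gzmb, Gzmk, Ncr1 and Txk.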

Other observations

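The contrast between probes of Cd8b1 was examined across the arrays as values. Several probes were kept for 4690 genes. Among them 108 had a brightest probe that did not pass while another kept probe was lower, and 268 had such a probe that was higher. In 3 of the 108 the log2 changes of the 2 probes differed by more than 1, and Cd8b1 had the widest gap, 2.36. The other 2 were Ifitm1, an interferon-induced membrane protein gene (gap 1.85), and H2ac10, a histone gene (1.17), named after their values were seen. The gap for Foxp3 was 0.60.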
